A study of Mus musculus with 2 samples.

Results

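The circadian clock genes described here are Arntl, Clock, Npas2, Per1, Per2, Per3, Cry1, Ciart, Nr1d1 and Dbp, measured in mouse liver on 2 one-colour Agilent arrays. Members were taken as every non-control probe whose transcript accession belongs to one of these 10 genes, out of 20660 genes named on the array. The 10 genes were represented by 11 probes, 2 for Dbp and 1 for each other gene. Both arrays detected 9 of the 10 genes above background, and 13881 of all named genes. Npas2 was not well above background on either array.

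One array held pooled liver RNA of wild-type (WT) mice and the other that of CREBH-Tg mice, both recorded as C57B6J in strain background. CREBH-Tg mice carry a human cDNA for the active form of CREBH, a liver-enriched transcription factor encoded by Creb3l3, and overexpress it mainly in the liver. Mice of both genotypes ate the HFHS diet for 12 weeks before sampling, so a group on another diet is not part of the comparison. The number and age of the mice in each pool, the hour of sampling and the feeding state at sampling are not given in the sources used here. Since there was 1 pool per genotype, no replicate exists, no difference was tested, and every difference below is described by its size.

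The clock of mammalian cells is a feedback loop of transcription. ARNTL (also called BMAL1) pairs with CLOCK or its relative NPAS2, and the pair binds E-box sequences and switches on the Per, Cry, Ciart, Nr1d1 and Dbp genes. PER and CRY proteins, and CIART, then repress that pair, while NR1D1 represses Arntl through the RORE sequence, where ROR receptors act as activators. In mouse liver, transcripts of Arntl, Clock, Npas2 and, somewhat earlier, Cry1 are known to peak at another part of the day than those of Nr1d1, Dbp, Ciart and the Per genes.

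The promoters of the 4 genes with the largest differences for which RefSeq gave a sequence are shown with the clock motifs in capitals, since these are the sequences through which the loop acts. Per2 was not in the promoter table. The sequences are from RefSeq on GRCm38.p6 and read 5′ to 3′ on the strand of the gene. They cover the bases before an annotated transcription start. For Arntl the stretch is chr7:113207262-113207511 (plus strand), ending on the first transcribed base of the second listed start, and the short stretch is a second site after that start, chr7:113207529-113207555. For Per1 it is chr11:69098699-69098948 (plus strand), for Per3 chr4:151044666-151044915 (minus strand) and for Ciart chr3:95882229-95882478 (minus strand). Capitals mark a RORE in Arntl, an E-box in Per1 and Ciart, and a D-box, the sequence bound by DBP and its relatives, in Per3.
Arntl promoter: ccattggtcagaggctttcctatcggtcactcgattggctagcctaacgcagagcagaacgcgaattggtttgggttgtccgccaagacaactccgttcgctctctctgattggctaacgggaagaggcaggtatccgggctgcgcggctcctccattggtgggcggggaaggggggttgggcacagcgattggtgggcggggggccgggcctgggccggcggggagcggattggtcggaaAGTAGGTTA
Arntl second site: gaaggcagaaAGTAGGTCAgggacgga
Per1 promoter: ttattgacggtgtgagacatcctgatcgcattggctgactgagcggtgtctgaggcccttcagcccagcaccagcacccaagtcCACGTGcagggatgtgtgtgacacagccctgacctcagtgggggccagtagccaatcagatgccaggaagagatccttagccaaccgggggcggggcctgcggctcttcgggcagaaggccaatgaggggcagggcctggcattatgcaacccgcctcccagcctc
Per3 promoter: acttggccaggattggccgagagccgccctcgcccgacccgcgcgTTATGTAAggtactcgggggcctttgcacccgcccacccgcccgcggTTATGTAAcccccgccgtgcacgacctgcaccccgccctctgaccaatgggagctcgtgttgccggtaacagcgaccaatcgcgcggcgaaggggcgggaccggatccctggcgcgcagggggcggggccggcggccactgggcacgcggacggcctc
Ciart promoter: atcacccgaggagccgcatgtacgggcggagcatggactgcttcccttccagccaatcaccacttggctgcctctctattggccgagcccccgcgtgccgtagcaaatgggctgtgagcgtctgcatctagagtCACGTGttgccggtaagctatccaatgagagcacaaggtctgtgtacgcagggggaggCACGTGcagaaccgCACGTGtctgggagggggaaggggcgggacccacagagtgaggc

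Motifs were searched on both strands from 250 bases before to 50 bases after each annotated start, in 32851 windows. Percentages are per window, whereas a clock gene counted when any of its windows held a match. Arntl, Clock and Per1 had more than 1 window, so the 2 measures are not alike. An E-box, CACGTG, lay in 7.15% of all windows and in those of 3 of the 9 clock genes with a window, Per1, Cry1 and Ciart. Ciart had 3 of them, beginning 116, 58 and 44 bases before the start. The related CACGTT lay in 4.68% of windows and in those of Cry1 and Nr1d1. A D-box, TTANGTAA, lay in 2.32% of windows, and Per3 held 2, beginning 205 and 158 bases before its start. A RORE, searched as AGTAGGTNA, lay in 0.591% of windows, among them both windows of Arntl. These letters were chosen with the Arntl sites known, so the match in Arntl is no result. The cAMP response element TGACGTCA, a motif of the CREB family, lay in 1.79% of windows and in none of the clock genes' windows. The letters of the E-box, D-box, RORE and cAMP response element do not overlap one another in the windows shown. A match describes the sequence only, and no match means only that these letters are not in that window.

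**Figure D1:**
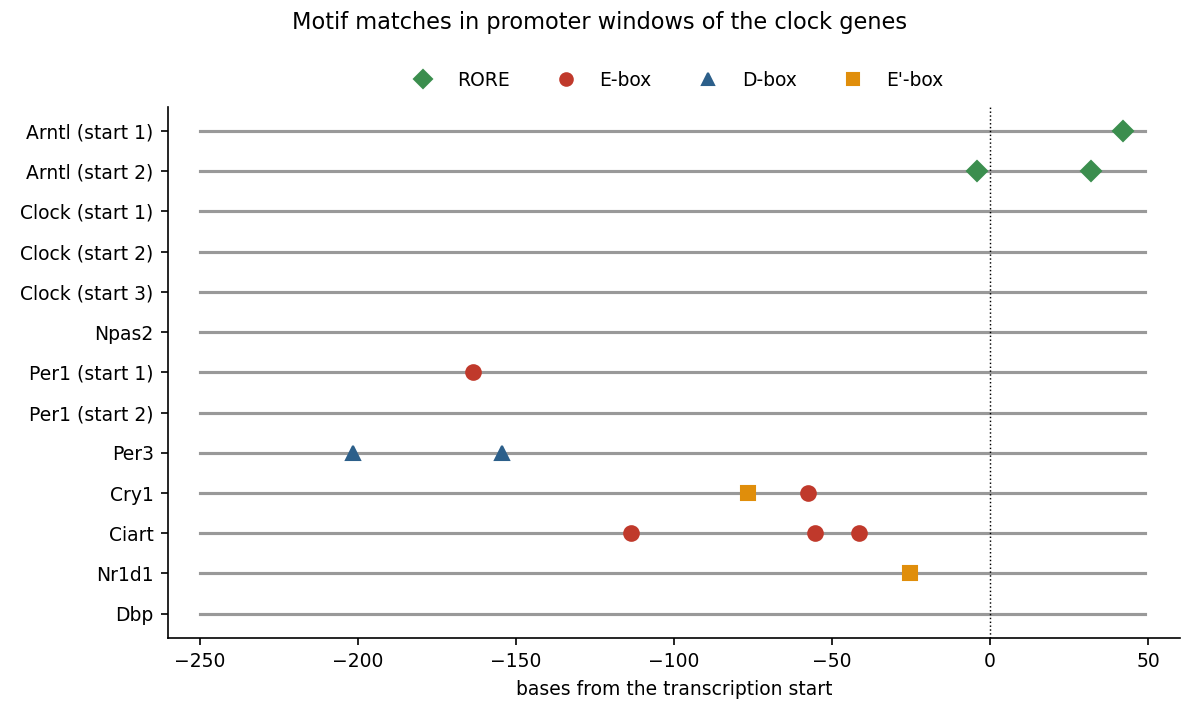
Positions of motif matches in the promoter windows of the 9 clock genes with a window, in bases from the annotated transcription start (dotted line at 0); each row is 1 window and each symbol 1 match. Ciart carries 3 E-box matches within 116 bases before its start, and Per3 carries 2 D-box matches. The same Arntl site is drawn in both of its overlapping windows, beginning 38 bases after the first start and 8 bases before the second. The other Arntl match lies after the second start.

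Each value below is a relative signal, the processed intensity of the probe divided by its array's 75th percentile over non-control spots. The 75th percentile was 333 intensity units for WT and 309 for CREBH-Tg, and 55.4% and 58.3% of spots were well above background. The ± value is the scanner software's own error for 1 spot, not a spread between animals. Signals of different probes cannot be ranked against each other, so only the same probe is compared across the arrays. A second error came from 276 probes spotted at least 5 times. With genes split by signal into 3 equal classes, the SD of log2 ratios between spots of one probe was 0.20 for the dimmest class, 0.085 for the middle one and 0.048 for the brightest. Its 95% range, 1.96 SD, was 0.40, 0.17 and 0.095 in these classes. Like the software's error, it holds no spread between animals or between repeat arrays. In the brightest class 35.8% of genes were higher and 15.5% lower by more than this range. All 8 hepatocyte markers listed were well above background on both arrays, with log2 ratios from -0.14 for Apob to 0.35 for Apoa1. In pooled tissue RNA, fewer cells of a type and less RNA per cell cannot be told apart.

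Arntl, the activator that is required for the loop, differed most among the clock genes. Its relative signal was 0.207 ± 0.024 in WT and 0.449 ± 0.046 in CREBH-Tg liver. The CREBH-Tg pool was thus 2.17-fold higher, a log2 ratio of 1.12, and the software errors of the signals did not overlap. The ratio exceeded both the spot noise range of its dim class, 0.40, and the range from the software's error, 0.44. Of all genes 0.511% had a ratio at least as high, and of the genes in the dimmest class 0.908%. With normexp background correction, whose offset shrinks the ratios of dim probes by construction, the log2 ratio of Arntl was 0.66.

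The partners of Arntl did not show a difference of that size. Clock, the histone acetyltransferase that pairs with ARNTL, had a relative signal of 0.637 ± 0.065 in WT against 0.690 ± 0.070 in CREBH-Tg, a log2 ratio of 0.12 inside its spot noise range of 0.17. Npas2, which can stand in for CLOCK, had a relative signal of 0.0117 in WT against 0.0154 in CREBH-Tg. Because neither was well above background, no ratio was formed for Npas2. Arntl2, the paralog of Arntl, was likewise not well above background on either array.

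The 3 Period genes, which encode the PER repressors, were all lower in the CREBH-Tg pool and by similar factors. Per1 had a relative signal of 12.1 ± 1.21 in WT and 9.14 ± 0.914 in CREBH-Tg, 1.32-fold lower with a log2 ratio of -0.40. Per2 had 0.558 ± 0.057 in WT and 0.425 ± 0.043 in CREBH-Tg, 1.31-fold lower with a log2 ratio of -0.39. Per3 had 0.275 ± 0.030 in WT and 0.204 ± 0.022 in CREBH-Tg, 1.35-fold lower with a log2 ratio of -0.44. For each of these genes the CREBH-Tg signal lay below the WT signal by more than the sum of both software errors. Per1, in the brightest class, lay beyond its spot noise range of 0.095 by a wide margin. Per3 lay just beyond the dim-class range of 0.40 and Per2 just within it. Against the software's error, whose 95% range on the log2 ratio was 0.40 for Per1, 0.41 for Per2 and 0.44 for Per3, all 3 ratios lay just inside.

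Ciart, a repressor of the ARNTL and CLOCK pair, went the same way as the Period genes. Its relative signal was 1.14 ± 0.115 in WT and 0.825 ± 0.083 in CREBH-Tg, 1.38-fold lower with a log2 ratio of -0.46. This exceeded the spot noise range of 0.17 and the software's range of 0.40. These 4 genes were grouped after their values were seen. The log2 ratios of Per1, Per2, Per3 and Ciart ran from -0.46 to -0.39 with a median of -0.42, against a median of 0.026 over all 13881 genes. The other clock genes that the ARNTL and CLOCK pair is known to switch on, Cry1, Nr1d1 and Dbp, are not in that median and had log2 ratios of 0.038, 0.28 and -0.038. Ratios at least as low were found for 4.84% of all genes at the value of Per1 and for 3.66% at that of Ciart. Within the signal class of each gene, such ratios were found for 1.53% of genes at Per1, 1.51% at Ciart, 10.9% at Per2 and 9.29% at Per3. All 4 were below 0 in each of the 9 other processings that kept them, and the stricter filter on dim probes kept Per1 and Ciart only.

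Cry1, the cryptochrome repressor, was nearly level between the arrays. Its relative signal was 0.0898 ± 0.016 in WT and 0.0922 ± 0.014 in CREBH-Tg, a log2 ratio of 0.038, and the sign turned to -0.11 with normexp. Cry1 lay in the dimmest class, so a difference under its spot noise range of 0.40 was not detectable here. The range from the software's error was wider, at 0.66.

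**Figure D2:**
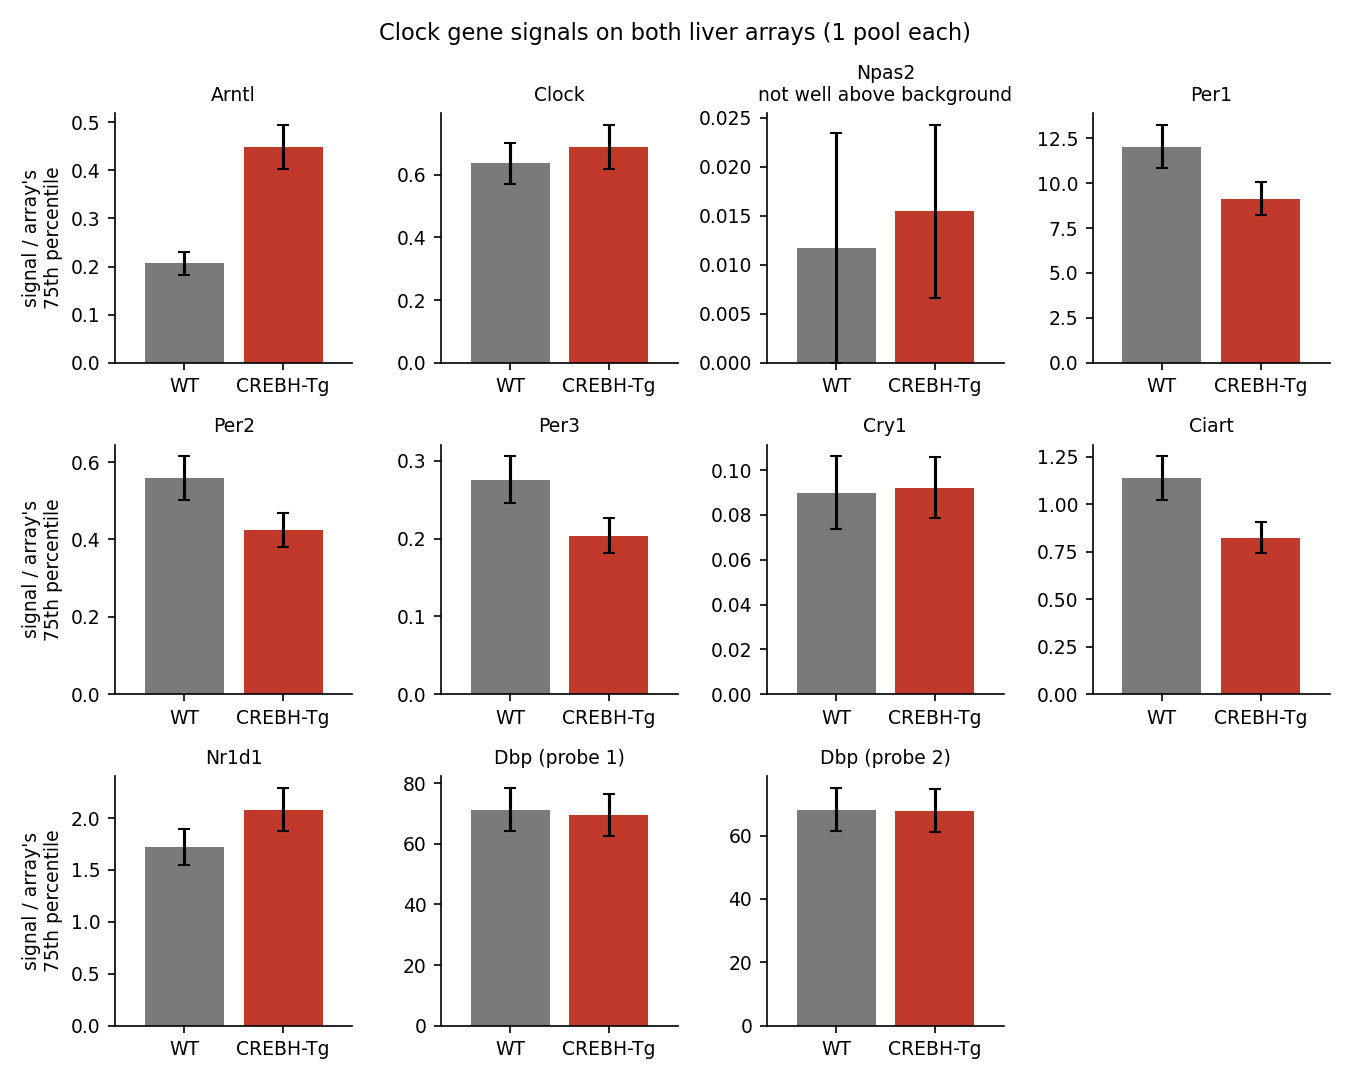
Relative signal (processed intensity over the array's 75th percentile, linear axes from 0) of each probe of the 10 clock genes on the WT array (grey) and the CREBH-Tg array (red), 1 pool each; bars are the signal and whiskers the scanner software's error for 1 spot. Arntl is at 0.207 and 0.449, the Per genes and Ciart are lower on the CREBH-Tg array, and both Dbp probes are nearly level; axes differ between panels, so heights are compared within a panel only.

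Nr1d1, the nuclear receptor REV-ERB alpha that represses Arntl, was slightly higher in the CREBH-Tg pool. Its relative signal was 1.72 ± 0.173 in WT and 2.08 ± 0.209 in CREBH-Tg, 1.21-fold higher with a log2 ratio of 0.28. The ratio exceeded the spot noise range of 0.17 but not the software's range of 0.40. In the liver loop Nr1d1 and the Period genes are known as E-box targets of the same activators, and here their ratios had opposite signs.

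Dbp, a PAR bZIP transcription factor that carries the rhythm to liver genes, was nearly equal on both arrays and was measured by 2 probes. The brighter probe had a relative signal of 71.4 ± 7.14 in WT and 69.5 ± 6.95 in CREBH-Tg, a log2 ratio of -0.038. The other probe had 68.2 ± 6.82 in WT and 67.8 ± 6.78 in CREBH-Tg, a log2 ratio of -0.0085. Both ratios lay within the spot noise range of 0.095, and the probes differed from each other by less than that range. The ratio of the brighter probe moved with the scaling, to 0.052 with scaling to the median, -0.13 with quantile normalization and -0.11 with loess, and the last 2 lay beyond the spot noise range.

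Counted together, 1 of the 9 measured clock genes, Arntl, was at least 2-fold higher in CREBH-Tg, where 0.663% of all genes were, and none was at least 2-fold lower, where 0.67% of all genes were. At 1.5-fold, Arntl was again the 1 gene higher (2.31% of all genes) and none was lower (2.23%). Arntl and Nr1d1 were higher by more than the spot noise range, as were 20.8% of all genes. Per1, Per3 and Ciart were lower by more than that range, as were 13.3% of all genes. The genes lower by that range changed with the processing: Per3 fell inside it with median scaling and with quantile normalization, Per2 passed it with the 75th percentile over detected probes and with normexp, and Dbp passed it with quantile normalization and with loess. Clock passed it as higher with median scaling. By the software's range, Arntl was higher (4.33% of all genes) and Ciart lower (3.51%). The number lower by the software's range moved with the scaling, from none with median scaling or normexp to all of Per1, Per2, Per3 and Ciart with the 75th percentile taken over detected probes. The median log2 ratio over the 9 genes was -0.038, with 4 above 0 and 5 below, so the list as a whole did not stand on one side. Scaling to the median changed the share of higher genes among all 2-fold calls from 49.7% to 59.9%.

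**Figure D3:**
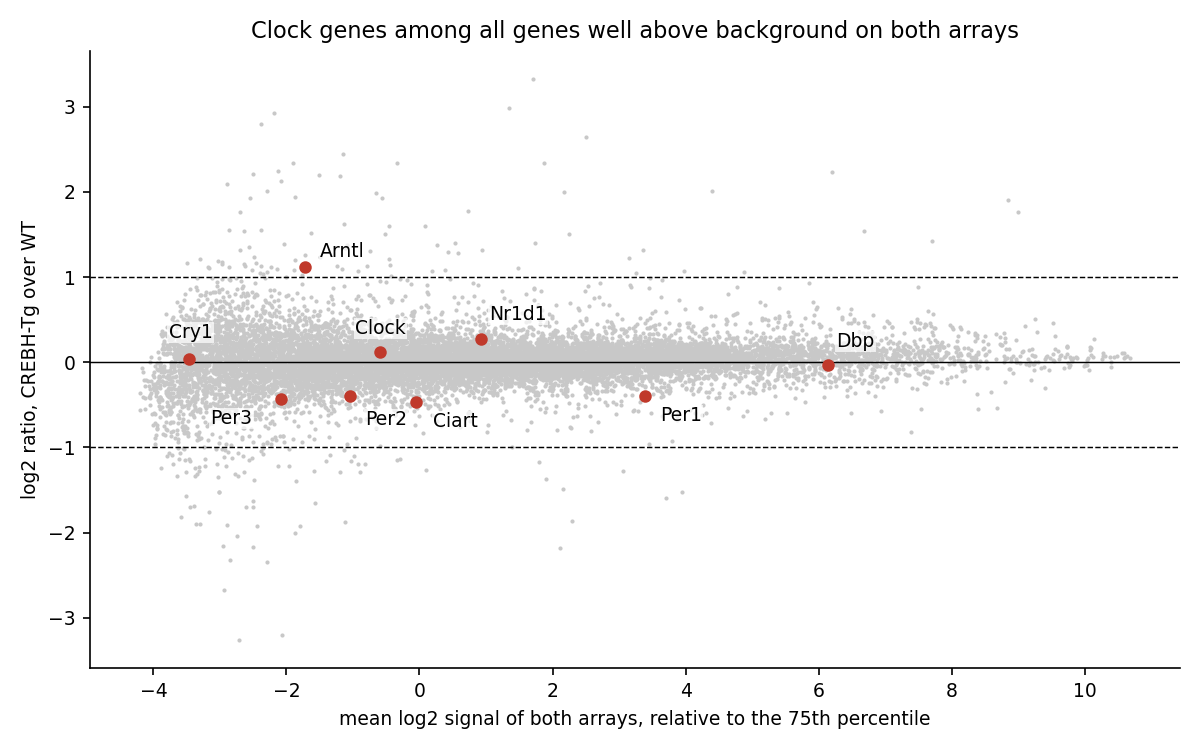
Log2 ratio of CREBH-Tg over WT against the mean log2 signal of both arrays for 13881 genes (grey points) with the 9 measured clock genes in red; dashed lines mark 2-fold. Arntl lies above the upper line, and Per1, Per2, Per3 and Ciart form a group between -0.46 and -0.39 at different signals.

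The remaining factors of the loop were taken from a list of 10 genes, of which 9 were measured. Their median log2 ratio was -0.062, with none at least 1.5-fold higher (2.31% of all genes) and 1, Rorb, lower (2.23%). Rorb did not pass 1.5-fold with normexp or with the mean over its probes. Among the repressors, Bhlhe40 (also called DEC1), which competes for E-boxes, was 1.26-fold lower, with relative signals of 6.34 (WT) and 5.05 (CREBH-Tg). Cry2, the second cryptochrome, was 1.12-fold lower, at 11.3 in WT and 10.07 in CREBH-Tg. Both exceeded the spot noise range of the brightest class, and both kept their sign under each of the other 9 processings, but with median scaling Cry2 lay inside that range at a log2 ratio of -0.076. Bhlhe41, the dim relative of Bhlhe40, had a log2 ratio of -0.031, or 0.059 with median scaling. Of the 8 repressors with Per1, Per2, Per3, Cry1 and Ciart included, 5 were lower by more than the spot noise range and none higher. Over all genes 13.3% were lower and 20.8% higher. Of the 8 genes 3 lay in the brightest class, where 15.5% of genes were lower and 35.8% higher by that measure. With median scaling 3 of the 8 were lower by that measure, Per3 and Cry2 falling inside the range. With the 75th percentile over detected probes or normexp 6 were, Per2 included. By the software's range 1 of the 8, Ciart, was lower (3.51% of all genes) and none higher (4.33%).

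Nfil3, a repressor that competes with DBP for D-boxes, was 1.35-fold higher in CREBH-Tg liver, with a relative signal of 6.48 in WT against 8.73 in CREBH-Tg. Its log2 ratio of 0.43 was beyond the bright-class noise range, and it stayed between 0.33 and 0.52 over the other processings. Like Arntl it is a known target of NR1D1 repression. Among the PAR bZIP relatives of Dbp, Tef had a log2 ratio of -0.099, just past the spot noise range of 0.095, and it ran from -0.20 with quantile normalization to -0.0095 with median scaling. Hlf had a log2 ratio of -0.062, which ran from -0.099 with quantile normalization to 0.027 with median scaling.

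Other nuclear receptors of the loop were close to equal or uncertain. Log2 ratios were 0.017 for Nr1d2, the paralog of Nr1d1 (-0.016 with normexp), and -0.030 for Rora (0.060 with median scaling). Rorb, a receptor known mainly from brain and retina, was the 1 factor past 2-fold lower (0.67% of all genes), at a log2 ratio of -1.14. Its probes disagreed, the second lying at 0.061, both were dim, and normexp gave -0.31, so its value is uncertain.

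**Figure D4:**
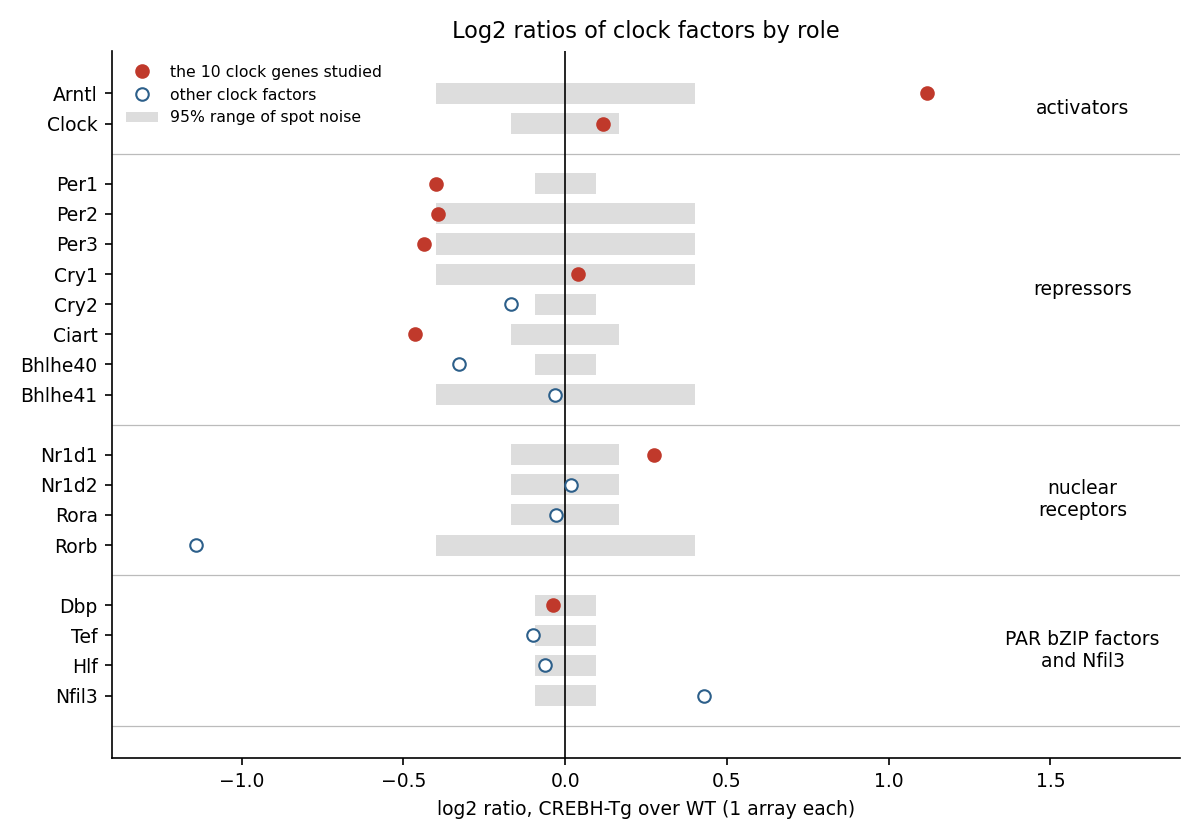
Log2 ratio of CREBH-Tg over WT for each clock factor reported here that was well above background on both arrays, grouped by role; filled red points are the studied clock genes, open blue points the other factors, and grey bars the 95% range of spot noise for the gene's signal class. Arntl, Nr1d1 and Nfil3 lie to the right of their bars, and Per1, Per3, Ciart, Bhlhe40, Cry2, Rorb and Tef to the left.

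Kinases and ubiquitin ligases that set the stability of PER and CRY proteins had a median log2 ratio of -0.0060 over 11 genes. Of these 1 was higher and 2 were lower by more than the spot noise range (20.8% and 13.3% of all genes). With median scaling 5 were higher, and with quantile normalization, loess or the mean over probes none was. With loess or the 75th percentile over detected probes 3 were lower. Of the 11 genes 7 lay in the brightest class, where 35.8% of genes were higher and 15.5% lower by that measure. Fbxl21, a ligase adaptor for cryptochromes, was the 1 gene past 1.5-fold, at a relative signal of 0.309 in WT against 0.100 in CREBH-Tg. Over all genes 2.31% were at least 1.5-fold higher and 2.23% lower, and in the dimmest class 5.34% were lower. Fbxl21 was in that class, and its second probe had a log2 ratio of -0.23 against -1.63 for the brighter one.

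Liver output genes of the clock went both ways. Of 13 genes measured, 3 were higher and 4 lower by more than the spot noise range (20.8% and 13.3% of all genes), and the median log2 ratio was -0.022. Of the 13 genes 11 lay in the brightest class, where 35.8% of genes were higher and 15.5% lower by that measure. With median scaling 5 were higher and 2 lower, and with quantile normalization or loess 2 were higher and 6 lower. None was 1.5-fold apart in the main values, where 2.31% of all genes were higher and 2.23% lower. Elovl3, a fatty acid elongase with a strong daily rhythm, lay farthest from 0, with a relative signal of 9.24 in WT against 13.8 in CREBH-Tg and a log2 ratio of 0.58, which passed 1.5-fold with normexp and with median scaling, at 0.67 with the latter. Noct, the rhythmic NADP(H) phosphatase nocturnin, was 1.33-fold lower, at 26.0 in WT and 19.6 in CREBH-Tg. Cyp2a4, a P450 of steroid hydroxylation known as a DBP target, was 1.46-fold lower, at 224 in WT and 154 in CREBH-Tg. Its log2 ratio of -0.54 passed 1.5-fold with quantile normalization, normexp, the mean over its probes and loess, at -0.63 with the last. Cyp2a4 has near-identical relatives, and whether its probes also bind them was not tested, so its value is uncertain. Noct and Cyp2a4 were chosen after their values were seen. Gys2 and Tspan4, higher by more than the spot noise range, had log2 ratios of 0.24 and 0.13.

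Markers of other cell types differed between the same pools. Of 5 adipocyte markers 3 were measured. Of these 2, Adipoq and Retn in the dimmest class, were at least 2-fold higher (0.663% of all genes, 1.21% of that class). With normexp their log2 ratios of 2.20 and 1.55 became 0.99 and 0.79, both under 2-fold. The stricter filter on dim probes left both out. The adipocyte sums of relative signal were 2.50 in WT and 3.71 in CREBH-Tg, and Cfd made most of both. Lep and Plin1 were detected in CREBH-Tg, at relative signals of 0.071 and 0.086, and not in WT. Of 8 lymphocyte markers all were measured and 1, Cd3d in the dimmest class, was at least 2-fold higher. Over all genes 0.663% were, and in that class 1.21%. With normexp the log2 ratio of Cd3d was 0.61. The lymphocyte sums were 13.6 and 14.9, of which Cd3e made 5.92 and 6.31 and Nkg7 6.63 and 7.16. Such sums mainly follow their brightest probes. Of 7 macrophage markers 6 were measured and all 6 had log2 ratios below 0, with sums of 168 and 152. Adgre1 and Marco were lower by more than the spot noise range, as were 13.3% of all genes. All 6 lay in the brightest class, where 15.5% of genes were lower by that measure. With loess all 6 markers were lower by it. Marco was 1.94-fold lower. The log2 ratios of Vsig4 and Cd5l turned to 0.019 and 0.022 with median scaling, and that of Clec4f to 0.065 with normexp. Of 5 cholangiocyte markers 4 were measured, with a median log2 ratio of -0.34. Their sums were 1.96 and 1.51, of which Spp1 made 1.33 and 0.93. Krt7 and Spp1 were lower by more than the spot noise range (13.3% of all genes), and Krt7 lay inside it with normexp. Krt19 and Sox9, at log2 ratios of 0.027 and -0.17, lay inside it in the main values. The part of these markers in the clock gene values was not tested. Effects of the hour of sampling and of the genotype cannot be told apart here, because each genotype is 1 pool and its hour is not known.

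**Figure D5:**
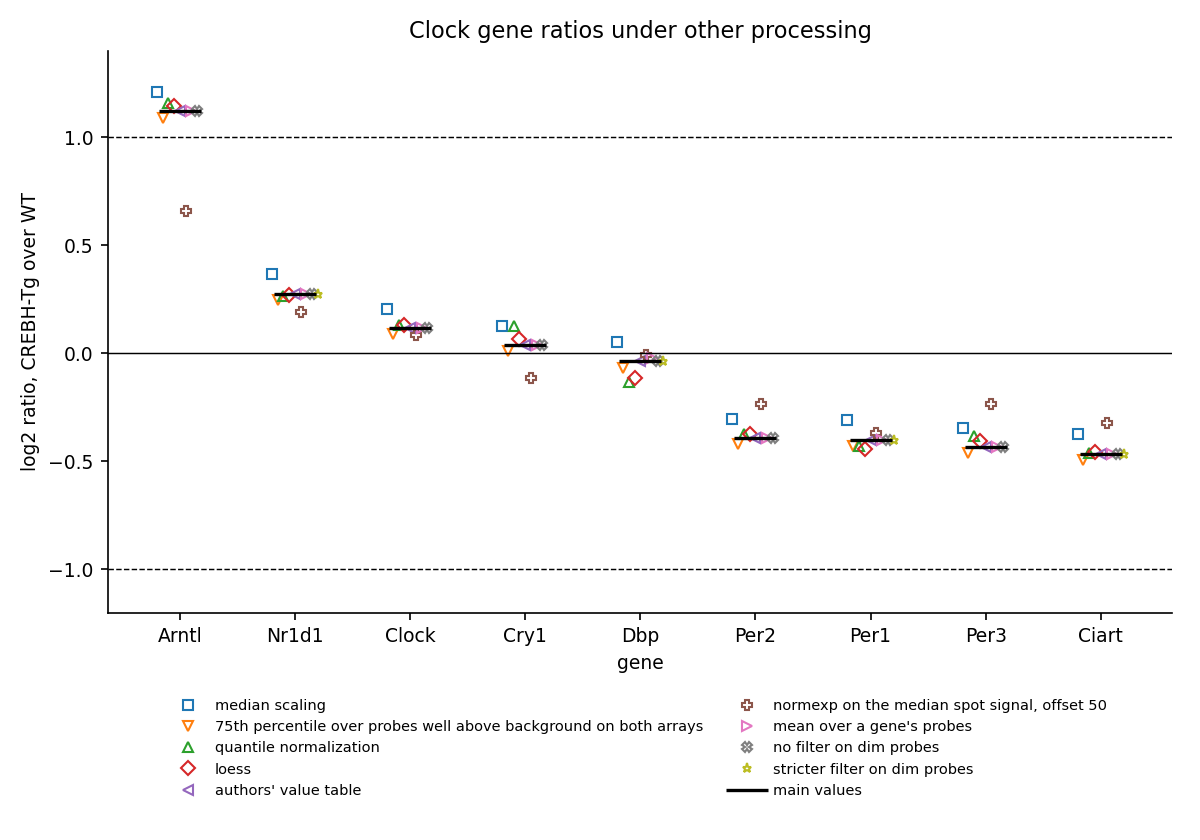
Log2 ratio of CREBH-Tg over WT of the 9 measured clock genes in the main values (black dashes) and under 9 other processings (symbols); dashed lines mark 2-fold. Arntl falls from 1.12 to 0.66 with normexp, Cry1 and Dbp cross 0, and the Per genes and Ciart stay below 0 throughout.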

How the data were processed

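Pooled liver RNA, 1 sample per genotype, was Cy3-labelled and put on 1 Agilent array each, per the labels. The deposited processed signal is an intensity from Agilent Feature Extraction 10.10.1.1 with background subtracted and within-array detrending but no scaling to other arrays, per the file headers, which name mm9. The flags for outlier and well-above-background spots have no unit and are the software's, per the file headers. The authors' value table is the deposited processed intensity times 1 constant per array.

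Control spots and 300 outlier spots were left out, repeat spots of a probe were averaged as log2 values, and each array's 75th percentile was subtracted. A probe counted as well above background when over 50% of its spots were. A gene took its brightest such probe on both arrays. Probes were named through RefSeq accessions (GRCm38.p6 gene table), which named 27233 of 55677 probes. Thresholds were 2-fold and 1.5-fold. The steps were tested on simulated data. Some listed genes are not reported here. The members and lists were chosen with earlier results of these data known. Named genes were all clock factors and, from the other lists, at most 4 genes 1.5-fold apart each, or else the gene farthest from 0. Outside this rule, Noct, Cyp2a4, Tsc22d3, Zbtb16, Tat and Fkbp5 were named after their values were seen, and cell type markers were named too. The planned normexp was run on the median spot signal, since the files read here hold no mean. The number of arrays limits the precision. Tools were Python 3.11.15, numpy 2.4.6, pandas 2.3.3, matplotlib 3.10.9, R 4.3.3 and limma 3.58.1.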

Additional observations from a re-analysis of the deposited data

How the results depend on the processing

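The 9 other processings were scaling to the median, the 75th percentile over detected probes, quantile normalization, loess (span 0.3), the values as the authors tabulated them, normexp (offset 50), averaging all probes of a gene, and no filter or a stricter one on dim probes. The count of clock genes at least 2-fold higher was 1 except with normexp and with the stricter filter, where it was 0; the stricter filter leaves Arntl out. The count at least 1.5-fold higher was 0 with the stricter filter and 1 otherwise. No clock gene was 1.5-fold or 2-fold lower under any of them. The median over the measured clock genes was -0.038, and it was 0.052 with median scaling, -0.13 with quantile normalization and -0.22 over the 4 genes that the stricter filter kept. Median scaling raised the median of all genes by 0.090. Over all genes, the 2-fold counts of 92 higher and 93 lower became 42 and 16 with normexp, 27 and 9 with the stricter filter, and 605 and 782 with no filter. Without a filter Npas2 had a log2 ratio of 0.40 from signals not well above background. By the scanner software's range, the count of clock genes lower was 1 in the main values and ran from 0 to 4; that count and the one by spot noise, for the clock genes and for the other lists, were added after the files were read. No paired analysis was possible because each genotype has 1 array. Dim probes limit Arntl, Per2, Per3 and Cry1.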

Other observations

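Gene lists that respond to feeding, temperature and glucocorticoids, all of which act on the liver clock, were also measured. Of the 12 fasting and feeding genes reported here, 6 were higher and 3 lower by more than the spot noise range (20.8% and 13.3% of all genes), and the median log2 ratio was 0.063. Of the 12 genes 9 lay in the brightest signal class, where 35.8% of genes were higher and 15.5% lower by that measure. None of them was 1.5-fold apart, where 2.31% of all genes were higher and 2.23% lower. Fasn, the fatty acid synthase that is raised by feeding, lay farthest from 0, with a relative signal of 8.39 in WT against 5.93 in CREBH-Tg, 1.42-fold lower. Of 7 temperature and heat shock genes measured none was 1.5-fold apart (2.31% of all genes higher and 2.23% lower). Hspa1a, an inducible chaperone, lay farthest from 0 at a log2 ratio of -0.36, and the list median was 0.054.

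Of 8 glucocorticoid-responsive genes, 4 were at least 1.5-fold higher and none lower, where 2.31% of all genes were higher and 2.23% lower, and the median log2 ratio was 0.40. Lcn2, a siderophore-binding protein, was 4.02-fold higher, and the metallothioneins Mt2 and Mt1 were 2.91-fold and 2.68-fold higher. Sgk1, a serum- and glucocorticoid-regulated kinase, was 1.59-fold higher. These 4 also respond to inflammation or metals. The log2 ratios of Tsc22d3 (GILZ), Zbtb16 and Tat, 3 other glucocorticoid targets, were -0.065, -0.065 and -0.083, and that of Fkbp5 was 0.12. The last 4 genes were chosen after their values were seen.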
